A study of Mus musculus with 12 samples.

Results

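The mammalian cell cycle genes measured here are 46 genes that drive or mark division, taken as a fixed list of 8 G1 genes, 11 S phase genes and 27 genes of G2 and mitosis. Each gene was read from the probe set with the highest mean signal over 12 liver arrays, leaving aside the less specific _x_at probe sets where another was present, and was kept where that mean was at least 20. This left 34 measured genes, 7 of G1, 10 of S phase and 17 of mitosis, among 11172 genes measured in the whole series. Of the other 12, Ccnb1 had no probe set naming it alone, and 11 lay below the limit (E2f1, Tyms, Bub1, Bub1b, Aurkb, Plk1, Cenpe, Kif11, Kif20a, Kif22 and Foxm1). The livers came from fasted C57BL/6 mice that were 8 weeks old at the start and stayed on their food for 8 weeks. There were 3 groups with 4 mice each, and 1 array per mouse. The NC mice ate normal chow, the MCD+HF mice ate a high fat diet that lacked methionine and choline, and the MCD+HF+Met mice ate that same diet with metformin mixed in at 0.1%. No genotype other than the strain, and no sex, was given in the labels. MCD+HF feeding is a dietary model of nonalcoholic steatohepatitis without diabetes. Chow differs from it in methionine and choline as well as in fat, so the parts played by these components cannot be told apart.

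A cell enters the cycle when D-type cyclins with Cdk4 release E2F factors from the Rb proteins, after which cyclin E with Cdk2 carries it into S phase. E2F factors switch on the replication genes, among them the Mcm helicase subunits, Pcna and the enzymes that supply deoxynucleotides. The genes of G2 and mitosis come on later, many of them through a protein complex that binds the cell cycle homology region (CHR) and CCAAT boxes in their promoters. Adult hepatocytes are mostly outside the cycle and re-enter it after injury, while immune cells, stellate cells and bile duct cells of a damaged liver can divide as well. An array of whole liver adds up all of these cells, so fewer cells of a type and less RNA per cell cannot be told apart.

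The liver label was borne out by albumin (Alb), the main plasma protein made by hepatocytes, at a mean signal of 17100 in NC mice, 8440 in MCD+HF mice and 9060 in MCD+HF+Met mice. All arrays were scaled by the authors to the same trimmed mean of 100. The 3'/5' signal ratio of beta-actin, a measure of RNA quality, lay between 1.54 and 1.88 in NC, between 1.46 and 1.62 in MCD+HF and between 1.62 and 1.86 in MCD+HF+Met mice, and that of Gapdh between 0.692 and 0.717, between 0.686 and 0.715 and between 0.704 and 0.804. The summed signals of cell type markers moved with the groups, which cell numbers or RNA per cell could each give. The summed signal of 9 macrophage markers ranged from 2300 to 2900 in NC, from 5500 to 8590 in MCD+HF and from 2420 to 3580 in MCD+HF+Met mice, that of 5 hepatocyte markers from 66400 to 80200, from 33500 to 42700 and from 36800 to 47600, and that of 4 bile duct markers from 22.8 to 67.6, from 273 to 362 and from 175 to 400. The 6 stellate cell markers summed to between 805 and 1040 in NC mice and between 1780 and 2850 in both other groups, and 3 neutrophil markers to between 109 and 186 and between 234 and 578. None of the T cell, NK cell or B cell markers listed reached the signal limit. The part of these shifts in the values below was not tested.

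The first comparison, MCD+HF against NC, asked what the diet did to these genes. Of the 34 measured members, 17 were higher and 3 lower at an adjusted p under 0.05 (limma, Benjamini-Hochberg adjustment over all 22832 probe sets tested), in a comparison where 25.4% of all probe sets were higher and 18.4% lower (5808 and 4191). With all arrays set to the same median, which moved the median change of all probe sets by -0.14, 4294 probe sets were higher and 5934 lower, and 14 members were higher and 4 lower. The 17 that rose were 3 of 7 G1 genes, 8 of 10 S phase genes and 6 of 17 mitotic genes. The counts are a description, because 12 of the 34 had an NC mean below 20 and 11 of these reached the limit in MCD+HF mice, so that they were measurable through the diet groups. With no signal limit, which brings in 45 members, 16 were higher and 3 lower, against 13.4% and 10.6% of all probe sets. The median log2 change was 0.18 over the G1 genes, 0.64 over the S phase genes and 0.62 over the mitotic genes, against 0.06 over all probe sets. Changes are given as log2 of the signal plus 10, which understates the change of dim genes, and folds are on the same scale.

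**Figure D1:**
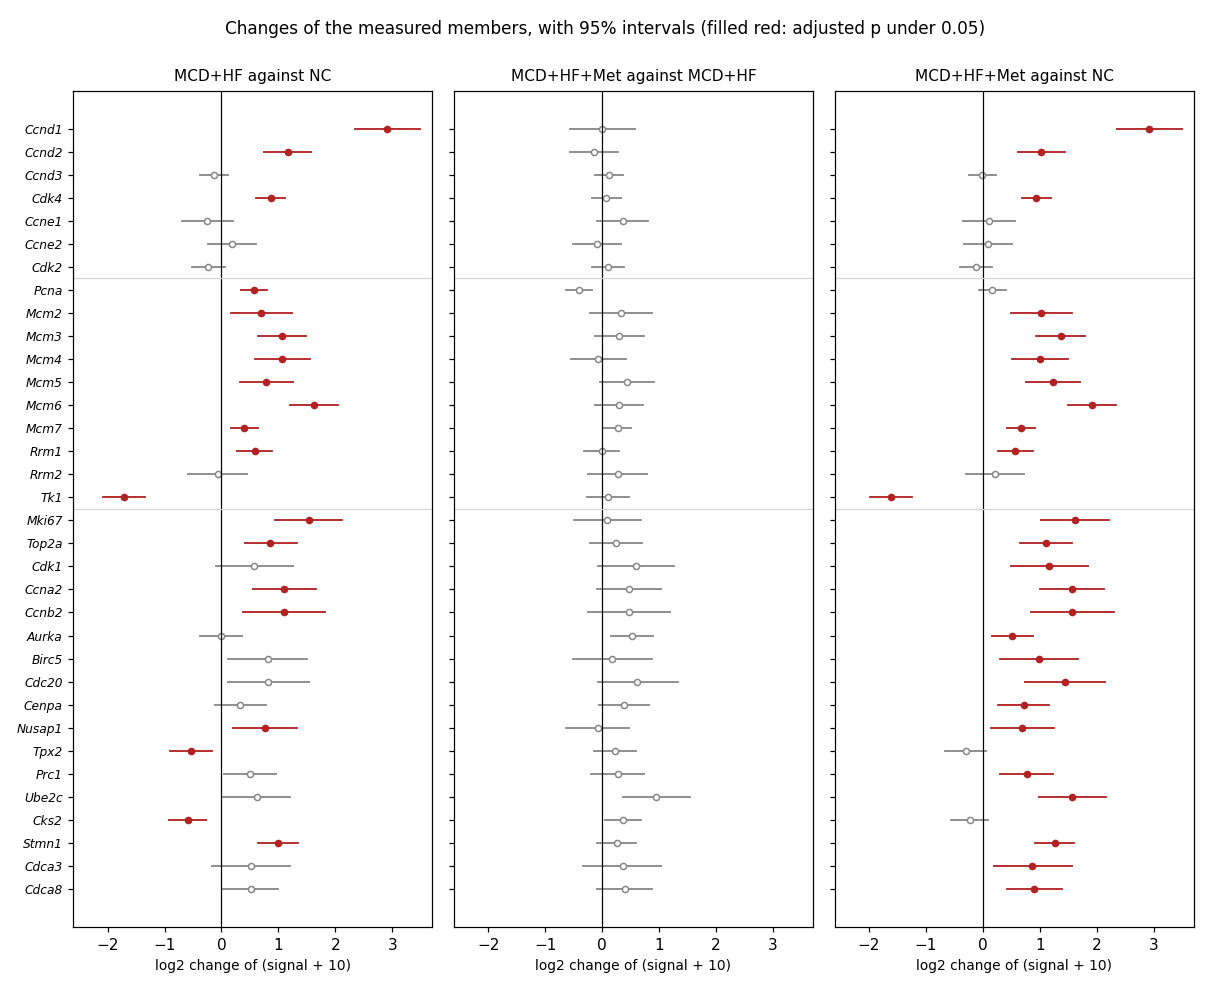
Log2 change of the signal plus 10 (x axis) for each of the 34 measured genes (y axis, G1, S phase and mitotic genes from top to bottom, separated by grey lines) in 3 comparisons, with 95% intervals from limma. Filled red points passed an adjusted p under 0.05. Most S phase genes lie to the right of 0 against NC in both diet groups, no gene is filled in the middle panel, and Tk1 stands alone on the far left against NC.

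Among the G1 genes, cyclin D1, cyclin D2 and Cdk4 passed the test in both comparisons with NC, as read from the chosen probe sets. Ccnd1, which encodes cyclin D1, gave signals of 183.9, 149.9, 212.4 and 199.5 in the 4 NC mice and 2048.0, 2010.7, 935.8 and 1177.3 in the MCD+HF mice. All MCD+HF mice lay far above every NC mouse, and replicates 1 and 2 were about level with each other and above the other pair. Ccnd1 rose by a log2 change of 2.91 ± 0.27 (SE, n = 4 per group), or 7.54-fold, with an adjusted p of 4.34e-07 (limma). With metformin the Ccnd1 signals were 1567.3, 2123.1, 1685.1 and 819.3, a range that overlapped that of the MCD+HF mice on both sides. The log2 difference between these groups was 0.00, with a 95% interval from -0.57 to 0.58.

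Ccnd2, the gene of cyclin D2, stood at 82.6, 79.5, 88.5 and 104.1 in NC mice, at 248.1, 226.9, 181.9 and 191.4 in MCD+HF mice, and at 225.9, 244.4, 215.2 and 108.6 in MCD+HF+Met mice. Every mouse of the diet groups was above all NC mice, but replicate 4 of the metformin group exceeded the highest of them only slightly. The log2 change with the diet was 1.17 ± 0.20 (SE, n = 4 per group; limma adjusted p = 0.000186), and the log2 difference with metformin was -0.14, with a 95% interval from -0.56 to 0.28. The other 4 measured Ccnd2 probe sets rose with the diet as well, by log2 changes from 0.99 to 1.34.

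Cdk4, the kinase partner of the D-type cyclins, gave 84.8, 77.6, 65.7 and 101.9 in NC, 158.4, 158.4, 160.6 and 152.0 in MCD+HF, and 175.0, 172.9, 168.4 and 149.7 in MCD+HF+Met mice. The MCD+HF mice lay close together and none came near the NC mice. Cdk4 rose by a log2 change of 0.87 ± 0.12 (SE, n = 4 per group; limma adjusted p = 2.79e-05). A dimmer probe set of the same gene gave a log2 change of only 0.28 (limma adjusted p = 0.151), and the brighter _x_at one gave 0.47 (limma adjusted p = 0.0278). In MCD+HF+Met against NC neither passed, with log2 changes of 0.28 and 0.33 (limma adjusted p = 0.159 and 0.12). The Cdk4 result thus depended on the probe set.

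The chosen probe sets of the other G1 genes did not pass the test in either comparison with NC, but other probe sets of Ccnd3 and Ccne1 did in 1 comparison each. Ccnd3, the third D-type cyclin, had means of 174, 157 and 172 in NC, MCD+HF and MCD+HF+Met mice (log2 change with the diet -0.13, limma adjusted p = 0.361). A dimmer Ccnd3 probe set went the other way, with a log2 change of 0.87 ± 0.23 (SE, n = 4 per group; limma adjusted p = 0.00651), so that no direction can be given for this gene. Cdk2, the kinase of the G1 to S transition, had means of 120, 102 and 111. Its cyclins Ccne1 and Ccne2 were dim, with all single values between 14.2 and 50.5, and NC and MCD+HF mice overlapped in both. For Ccne1 the MCD+HF+Met mice, at 31.9 to 35.4, lay above the MCD+HF mice, at 14.2 to 30.3, but the log2 difference of 0.36 had a limma adjusted p of 0.379. A Ccne1 probe set of the _x_at kind was higher in MCD+HF+Met than in NC mice, by a log2 change of 0.68 (limma adjusted p = 0.015), against 0.11 in the chosen one. In the chosen probe sets the log2 changes with the diet ran from 0.87 to 2.91 for Ccnd1, Ccnd2 and Cdk4 and from -0.25 to 0.18 for Ccnd3, Ccne1, Ccne2 and Cdk2.

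**Figure D2:**
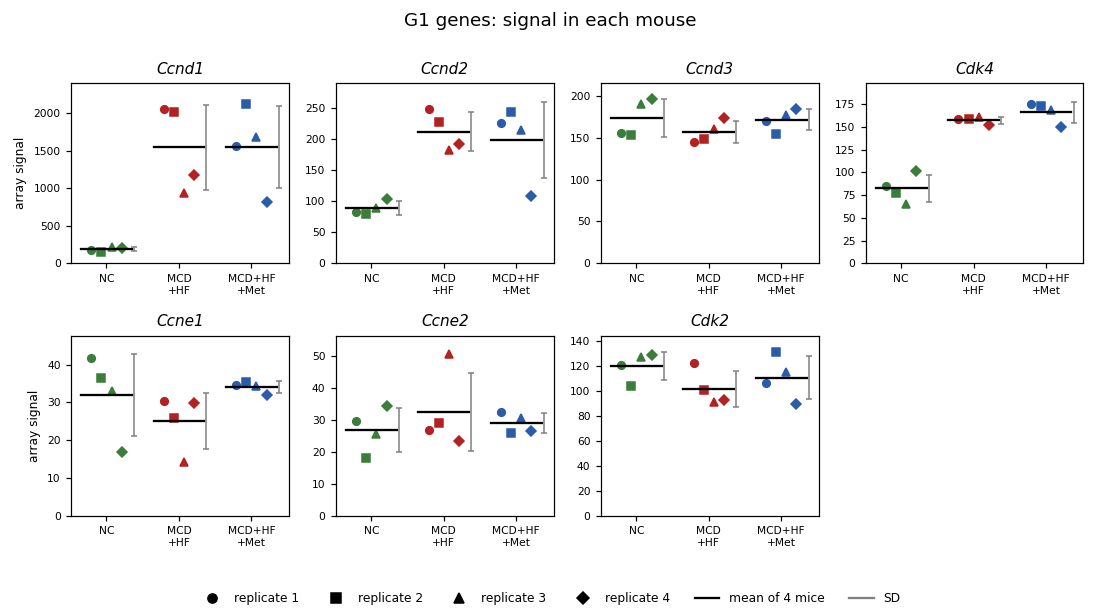
Array signal (y axis, from 0, scaled per gene) of the 7 measured G1 genes in each of 12 mice, by group (x axis). Symbols mark the replicate number, black lines the mean of 4 mice and grey bars the SD. In Ccnd1, Ccnd2 and Cdk4 no mouse of the diet groups reaches down to the NC mice, while NC mice overlap with both diet groups in the cyclin E genes.

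Of the 10 measured S phase genes, 8 rose with the diet, Tk1 fell and Rrm2 did not pass the test in its chosen probe set. Over all probe sets 25.4% were higher and 18.4% lower. All of Mcm2, Mcm3, Mcm4, Mcm5, Mcm6 and Mcm7, the subunits of the helicase that opens DNA at replication origins, were higher in MCD+HF than in NC mice, with log2 changes from 0.40 (Mcm7) to 1.62 (Mcm6). The Mcm7 call rested on the chosen probe set: the 3 others gave log2 changes of -0.06, 0.26 and 0.38 with the diet, with limma adjusted p-values of 0.758, 0.300 and 0.066. The chosen Mcm2 probe set had an adjusted p of 0.0351 and passed the test in 12 of 23 alternative settings, with a log2 change between 0.53 and 1.01 in all of them, while a dimmer Mcm2 probe set rose by a log2 change of 1.2 (limma adjusted p = 0.000237). Replicate 3 of the NC mice, at 102.2, lay far above the other NC mice (34.9 to 42.0) in the chosen Mcm2 probe set.

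Mcm6 gave signals of 26.7, 44.8, 54.4 and 25.2 in NC mice, 147.8, 176.3, 97.8 and 117.0 in MCD+HF mice, and 155.3, 176.0, 161.0 and 168.0 in MCD+HF+Met mice. The lowest value on either diet was above the highest NC value, and the metformin group was the tightest of the 3, with an SD of 8.95. Against NC it rose by a log2 change of 1.62 ± 0.20 on MCD+HF (SE, n = 4 per group; limma adjusted p = 8.07e-06) and by 1.92 ± 0.20 with metformin added. Between the diet groups it was 0.30, with a 95% interval from -0.12 to 0.72.

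Mcm4 signals were 51.9, 29.5, 49.9 and 40.7 in NC, 117.9, 154.8, 61.2 and 87.4 in MCD+HF, and 107.7, 94.8, 114.6 and 69.1 in MCD+HF+Met mice. Mcm3 signals were 28.6, 21.5, 27.1 and 23.5, then 77.7, 94.1, 37.7 and 56.4, then 76.9, 79.1, 98 and 70.0. For both genes no mouse on either diet fell into the NC range, replicate 2 was the highest and replicate 3 the lowest of the MCD+HF mice. The log2 changes with the diet were 1.07 ± 0.23 for Mcm4 and 1.06 ± 0.20 for Mcm3 (SE, n = 4 per group; limma adjusted p = 0.00135 and 0.00048). A further Mcm3 probe set gave 0.27 with an adjusted p of 0.264.

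Pcna, the sliding clamp of the replication fork, differed from the Mcm genes in the metformin group. It was chosen after its values were seen. Its signals were 680.3, 800.1, 682.1 and 708.2 in NC mice, 1089.5, 1202.6, 934.4 and 1070.4 in MCD+HF mice, and 779.8, 692.0, 805.6 and 961.0 in MCD+HF+Met mice. Every MCD+HF mouse was above the NC mice, whereas 2 of the MCD+HF+Met mice lay within the NC range and replicate 4 alone reached into the MCD+HF range. Pcna rose by a log2 change of 0.57 ± 0.11 with the diet (limma adjusted p = 0.000529), and the log2 difference was -0.41 ± 0.11 for MCD+HF+Met against MCD+HF (SE, n = 4 per group; limma adjusted p = 0.0525). The second value missed the threshold, and passed it in 6 of 23 alternative settings, where its adjusted p ranged from 0.0219 to 0.16.

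Of the genes that supply deoxynucleotides, Rrm1, the large subunit of ribonucleotide reductase, rose from a mean of 63.3 ± 6.08 to 100 ± 16.4 (SD, n = 4; limma adjusted p = 0.00448). Rrm2, the small subunit, whose level is the one that follows S phase, had means of 46.6, 45.6 and 54.8 in NC, MCD+HF and MCD+HF+Met mice and did not pass the test. Its other probe sets disagreed: a dimmer one rose with the diet by a log2 change of 0.76 (limma adjusted p = 0.045) and the brighter _x_at one had 0.09 (limma adjusted p = 0.789). Against NC both were higher in MCD+HF+Met mice, by log2 changes of 1.11 and 0.63 (limma adjusted p = 0.0068 and 0.048), so that the result for Rrm2 depended on the probe set. Tyms, thymidylate synthase, was too dim to be tested, at a mean signal of 6.48.

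Tk1, the thymidine salvage kinase of dividing cells, went the other way. Its signals were 134.6, 154.7, 108.4 and 158.1 in NC mice, 39.2, 35.8, 22.0 and 46.5 in MCD+HF mice, and 43.7, 33.0, 41.0 and 36.3 in MCD+HF+Met mice. All NC mice were above all mice on the MCD+HF diet, and the diet groups covered the same range. Tk1 fell by 1.72 on the log2 scale (SE 0.17, n = 4 per group; limma adjusted p = 1.1e-06) and stayed lower with metformin, where the log2 change against NC was -1.61 ± 0.17. The measured markers of the red cell lineage also fell with the diet. Alas2, the erythroid heme synthesis enzyme, had means of 623, 158 and 280 in NC, MCD+HF and MCD+HF+Met mice. Klf1, the erythroid transcription factor, had means of 88.1, 23.4 and 21.2. With metformin Alas2 rose by a log2 change of 0.72 (limma adjusted p = 0.0394), while that of Tk1 was 0.11 (limma adjusted p = 0.797). Hba-a1, below the signal limit, had means of 5.5, 13.6 and 7.75. Both of the 2 erythroid markers measured of 5 listed fell with the diet, their summed signal (with 1 dimmer marker) ranged from 676 to 772 in NC, from 176 to 220 in MCD+HF and from 229 to 475 in MCD+HF+Met mice, and their part in the Tk1 value was not tested.

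**Figure D3:**
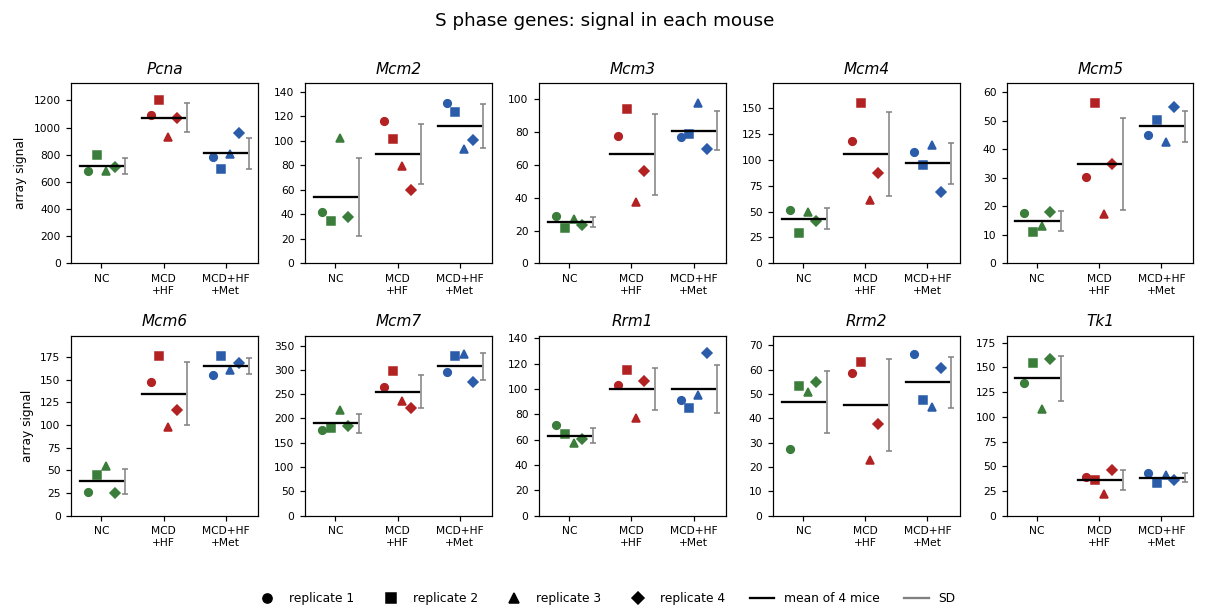
Array signal (y axis, from 0, scaled per gene) of the 10 measured S phase genes in each of 12 mice, by group (x axis). Symbols mark the replicate number, black lines the mean of 4 mice and grey bars the SD. The Mcm genes and Rrm1 are higher in both diet groups than in NC, Pcna is highest in the MCD+HF group, and Tk1 is lower in both.

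The promoters of the S phase genes that rose and of the gene that fell are set side by side because E2F sites mark replication genes. The letters searched on both strands, in 250 bases before to 50 bases after the RefSeq start, were TTTCCCGC, TTTGGCGC, TTTCGCGC and TTTGCCGC for E2F, TTTGAA for the CHR and CCAAT. RefSeq promoters (GRCm38.p6) were matched for 36 of the 46 genes, and 5 of them were Mcm genes. An E2F match was found in 4 of these 5 Mcm promoters, against 2.6% of 27025 genes. Over all S phase promoters it was found in 4 of 10. Mcm2, Pcna and Rrm1, which rose with the diet, held none, and neither did Rrm2, Tyms or Tk1. The lack of an E2F match therefore does not set Tk1 apart from the genes that rose. A CCAAT match was found in 8 of the 10 S phase promoters. These 8 were Rrm2 and every gene that rose and had a promoter here, while Tk1 and Tyms held none. The part of this difference in the Tk1 value was not tested. The stretches shown run from position -200 towards the start and end before the outermost annotated start of the gene, with matches to any of these motifs in capitals. Mcm5 lies at chr8:75109309-75109467 on the plus strand, Mcm6 at chr1:128359706-128359905 on the minus strand and Tk1 at chr11:117826088-117826214 on the minus strand.
Mcm5: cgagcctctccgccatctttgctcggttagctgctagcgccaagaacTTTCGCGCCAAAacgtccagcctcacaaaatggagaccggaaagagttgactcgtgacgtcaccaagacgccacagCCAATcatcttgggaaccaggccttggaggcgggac
Mcm6: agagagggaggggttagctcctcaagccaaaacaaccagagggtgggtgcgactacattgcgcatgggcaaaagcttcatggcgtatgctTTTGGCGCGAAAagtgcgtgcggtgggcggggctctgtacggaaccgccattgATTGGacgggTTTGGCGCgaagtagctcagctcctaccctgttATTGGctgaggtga
Tk1: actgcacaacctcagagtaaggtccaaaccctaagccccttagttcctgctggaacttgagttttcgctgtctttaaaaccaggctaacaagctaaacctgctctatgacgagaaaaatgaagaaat
In Mcm5 the E2F matches at positions -153 and -149 overlap on opposite strands, as do those at -110 and -106 in Mcm6, which has another at -47. The stretch of Tk1 holds no match to any of these letters, and neither does the rest of its 300 base window, which says nothing of what binds there.

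The mitotic genes were dim in NC livers, where 11 of the 17 measured had a mean below 20. With the diet 6 were higher (Mki67, Ccna2, Ccnb2, Stmn1, Top2a and Nusap1), 2 were lower (Cks2 and Tpx2) and 9 did not pass the test. These shares, 35.3% higher and 11.8% lower, are not far from the 25.4% and 18.4% of all probe sets. The 9 included Cdk1, the kinase that starts mitosis, at means of 27.6 and 47.0 (log2 change 0.57, 95% interval from -0.10 to 1.25), and Aurka, a spindle pole kinase, at 19.9 and 19.8. Cdc20, an activator of the anaphase-promoting complex, and Birc5, the survivin subunit of the chromosomal passenger complex, had log2 changes of 0.82 and 0.81 with limma adjusted p-values of 0.0562 and 0.0544.

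Mki67, which encodes the proliferation antigen Ki-67, stood at 7.9, 25.2, 10.9 and 3.7 in NC mice, at 68.1, 55.3, 37.4 and 41.8 in MCD+HF mice, and at 77.2, 31.5, 51.6 and 63.1 in MCD+HF+Met mice. All mice on either diet were above all NC mice, although replicate 2 of the NC group and replicate 2 of the metformin group came close to each other. Mki67 rose by a log2 change of 1.53 ± 0.28 with the diet (SE, n = 4 per group; limma adjusted p = 0.000359) and the log2 difference was 0.09 for MCD+HF+Met against MCD+HF, with a 95% interval from -0.50 to 0.69.

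Ccna2, cyclin A2 of S phase and G2, gave 10.4, 16.7, 3.3 and 14.2 in NC, 46.6, 43.8, 18.7 and 32.7 in MCD+HF, and 63.6, 37.1, 40.0 and 68.7 in MCD+HF+Met mice. Replicate 3 of the MCD+HF mice was only just above the highest NC mouse, and the rest were clear of it. Ccna2 rose by a log2 change of 1.1 ± 0.26 with the diet (SE, n = 4 per group; limma adjusted p = 0.00301).

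Ccnb2, cyclin B2 of mitosis, gave 25.1, 3.8, 3.2 and 17.6 in NC, 43.5, 41.8, 27.8 and 25.0 in MCD+HF, and 85.4, 27.2, 36.6 and 73.8 in MCD+HF+Met mice. NC and MCD+HF mice overlapped by a hair, between NC replicate 1 and MCD+HF replicate 4. The log2 change was 1.09 ± 0.34 with the diet (SE, n = 4 per group; limma adjusted p = 0.0165), and the adjusted p was 0.0562 without NC replicate 2 and 0.0557 without NC replicate 3, the dimmest mice of that group.

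Stmn1, stathmin, which takes microtubules apart, was the brightest of the mitotic genes that rose, at 121.2, 134.6, 105.5 and 109.3 in NC, 298.8, 266.9, 198.3 and 224.9 in MCD+HF, and 400.4, 254.4, 229.2 and 317.2 in MCD+HF+Met mice. There was a wide gap between NC and both diet groups. The log2 change was 1.00 ± 0.16 with the diet (SE, n = 4 per group; limma adjusted p = 0.000139), and 0.50 in a further probe set, with an adjusted p of 0.103. Top2a, the topoisomerase that untangles sister DNA, rose from a mean of 12.6 ± 4.40 to 31.4 ± 9.78, and Nusap1, a spindle protein, from 12.6 ± 5.70 to 28.7 ± 10.1 (SD, n = 4). Tpx2, a spindle assembly factor, was read from the only 1 of its 4 probe sets that reached the signal limit, at means of 27.9, 16.3 and 20.6, with a log2 change of -0.53 (limma adjusted p = 0.0225).

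**Figure D4:**
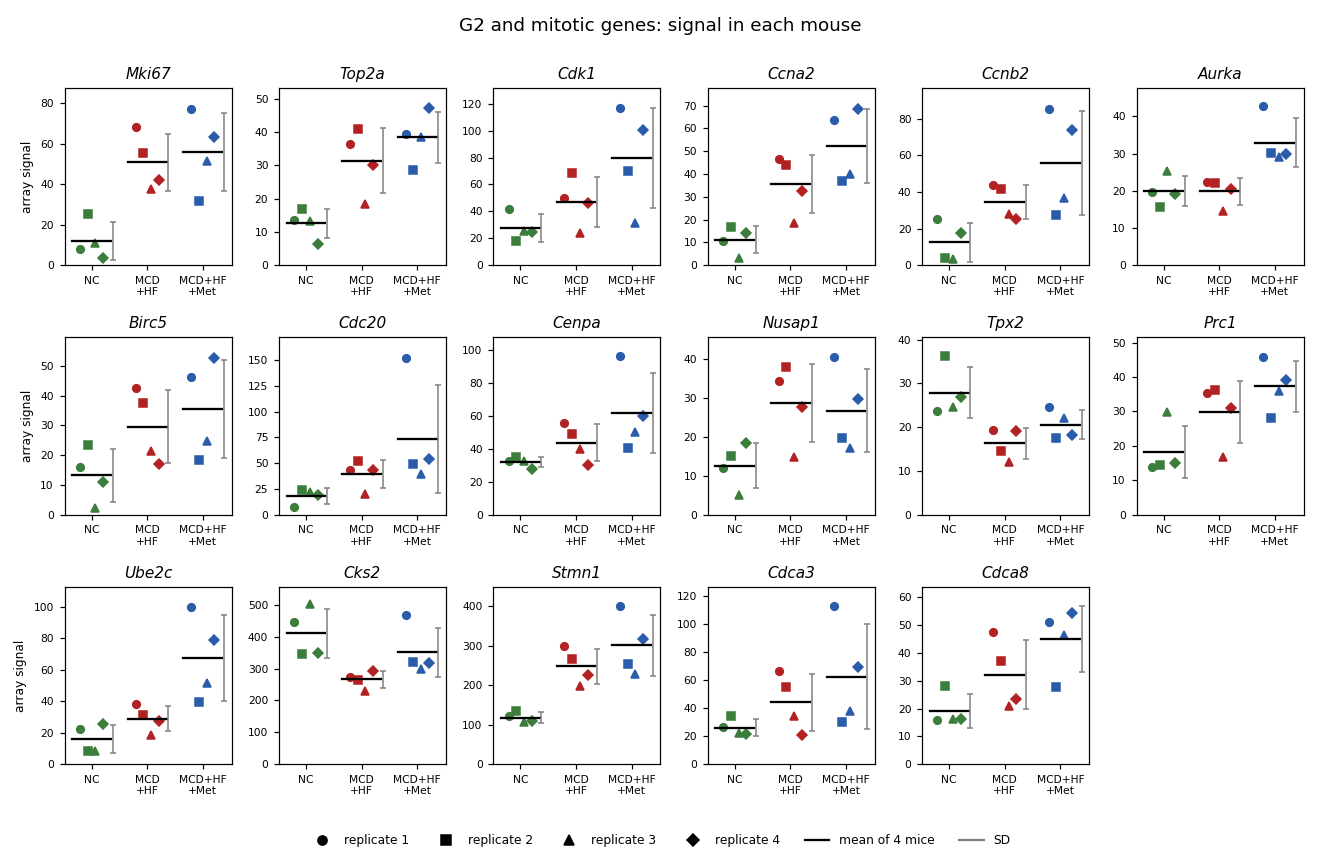
Array signal (y axis, from 0, scaled per gene) of the 17 measured G2 and mitotic genes in each of 12 mice, by group (x axis). Symbols mark the replicate number, black lines the mean of 4 mice and grey bars the SD. In most panels the MCD+HF triangle (replicate 3) is the lowest of its group and the MCD+HF+Met circle (replicate 1) the highest of its group, while Cks2 and Tpx2 are highest in NC.

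Cks2, a small subunit that binds the cyclin-dependent kinases, did not follow the mitotic genes that rose, and was chosen after its values were seen, as were the second probe set and the mouse values of Cks1b given after it. Its signals were 446.5, 346.1, 501.7 and 347.6 in NC mice, 274.9, 264.3, 230.7 and 293.8 in MCD+HF mice, and 466.9, 321.5, 297.5 and 316.8 in MCD+HF+Met mice. All MCD+HF mice were below all mice of both other groups. The log2 change was -0.59 ± 0.15 with the diet (SE, n = 4 per group; limma adjusted p = 0.00465), and 0.37 ± 0.15 for MCD+HF+Met against MCD+HF, with an adjusted p of 0.195 that ranged from 0.0777 to 0.629 over 23 alternative settings.

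A second Cks2 probe set, which the rule did not choose because it was dimmer, passed the test in both directions. Its signals were 315.1, 269.5, 364.6 and 296.9 in NC, 210.2, 208.0, 155.3 and 202.0 in MCD+HF, and 346.7, 275.9, 267.0 and 262.0 in MCD+HF+Met mice. The MCD+HF mice again lay below all others. The log2 change was -0.66 ± 0.13 with the diet (limma adjusted p = 0.000658) and 0.55 ± 0.13 with metformin (limma adjusted p = 0.0297, SE, n = 4 per group). The metformin value kept an adjusted p under 0.05 in 18 of 25 alternative settings. The p was 0.0639 without MCD+HF replicate 2, 0.0842 without MCD+HF replicate 3, 0.0816 without MCD+HF+Met replicate 1 and 0.0689 without MCD+HF+Met replicate 2.

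Cks1b, a paralogue of Cks2, was the only 1 of the 51 measured cell cycle genes outside the list that passed the test with metformin. This share, 1.96%, lies near that of all probe sets, of which 1.24% were higher and 2.21% lower. Its mean was highest in MCD+HF+Met mice, at 683, against 540 in NC and 369 in MCD+HF mice, whereas both Cks2 probe sets were highest in NC. Its signals were 556.9, 494.9, 650.1 and 459.4 in NC, 439.8, 486.3, 248.8 and 302.8 in MCD+HF, and 868.9, 734.8, 626.7 and 500.1 in MCD+HF+Met mice. The metformin mice were all above the MCD+HF mice, while the NC mice overlapped with both. The log2 change was -0.57 ± 0.20 with the diet (limma adjusted p = 0.0286) and 0.89 ± 0.20 with metformin (limma adjusted p = 0.0232, SE, n = 4 per group). The metformin value lost the threshold without MCD+HF replicate 3 (0.0626), MCD+HF replicate 4 (0.0607), MCD+HF+Met replicate 1 (0.0652) or MCD+HF+Met replicate 2 (0.0762), and a dimmer probe set of the gene passed it under none of 25 alternatives.

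The mitotic promoters are shown for 3 genes, the kinase Cdk1, the ubiquitin-conjugating enzyme Ube2c and Mki67, because the CHR and CCAAT boxes are what the genes of that phase share in sequence, a feature the choice of genes did not use. Of 21 mitotic genes with a promoter in the table, 15 held both a CHR and a CCAAT match, against 8.97% of all genes. A CHR match was present in 71.4% of the mitotic, in 1 of 10 S phase promoters and in none of 5 G1 promoters, against 20.2% of all genes, and CCAAT was present in 90.5%, 80.0% and 40.0%, against 41.1%. An E2F match was present in 1 mitotic promoter, that of Cdk1. The stretches have the same layout and capitals as those of the S phase genes, with Cdk1 at chr10:69352913-69353112 on the minus strand, Ube2c at chr2:164769729-164769928 on the plus strand and Mki67 at chr7:135716451-135716579 on the minus strand.
Cdk1: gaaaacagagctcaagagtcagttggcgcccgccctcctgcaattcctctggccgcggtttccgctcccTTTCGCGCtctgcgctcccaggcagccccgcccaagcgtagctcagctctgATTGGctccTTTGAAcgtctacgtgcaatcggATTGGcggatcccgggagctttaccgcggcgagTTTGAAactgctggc
Ube2c: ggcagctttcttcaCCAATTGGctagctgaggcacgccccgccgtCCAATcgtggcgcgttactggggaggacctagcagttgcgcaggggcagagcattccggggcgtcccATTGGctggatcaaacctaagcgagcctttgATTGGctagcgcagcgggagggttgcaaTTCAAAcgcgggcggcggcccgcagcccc
Mki67: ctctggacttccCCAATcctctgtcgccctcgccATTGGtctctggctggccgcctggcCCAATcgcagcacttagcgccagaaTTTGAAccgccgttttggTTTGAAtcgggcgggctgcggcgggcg
CHR matches begin at positions -71 and -15 in Cdk1, at -116 and -98 in Mki67 and, on the other strand, at -29 in Ube2c. All 3 promoters hold CHR and CCAAT matches, and of the 3 genes Mki67 alone passed the test in MCD+HF against NC. The matches are letters in a window and were not measured in these livers.

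The second comparison, MCD+HF+Met against MCD+HF, asked what metformin did on the diet. None of the 34 members passed the test, in a comparison where 1.24% of all probe sets were higher and 2.21% lower (282 and 504, or 438 and 426 with arrays set to the same median; limma, adjusted p under 0.05). With no signal limit none of 45 members passed either, against 0.369% and 0.688% of all probe sets. At an unadjusted p under 0.05 there were 5 of 34, Ube2c, Aurka, Cks2 and Mcm7 higher and Pcna lower, where 19.0% of all probe sets had such a p. The methods' t-test at their 1.5-fold difference called Ube2c alone, and none after Benjamini-Hochberg adjustment. The median log2 change was 0.07 over the G1 genes, 0.27 over the S phase genes and 0.37 over the mitotic genes, against -0.02 over all probe sets, and 16 of the 17 mitotic genes had a change above 0, as had 46.9% of all probe sets. The beta-actin 3'/5' ratio also differed between these groups, with a mean of 1.73 with metformin and of 1.54 without it, and its part in these values was not tested.

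Ube2c, the ubiquitin-conjugating enzyme of the anaphase-promoting complex, had the largest difference of the 34 members between the diet groups. It was chosen after its values were seen. Its signals were 22.4, 8.2, 8.3 and 25.3 in NC mice, 38.2, 31.4, 18.7 and 27.3 in MCD+HF mice, and 99.6, 39.5, 51.3 and 78.9 in MCD+HF+Met mice. All metformin mice were above all MCD+HF mice, by a small margin between replicate 2 of one group and replicate 1 of the other. The log2 difference was 0.95 ± 0.28 (SE, n = 4 per group; limma adjusted p = 0.0716), with a 95% interval from 0.36 to 1.54, and its adjusted p ranged from 0.0234 to 0.33 over 22 alternative settings, 2 of which passed. Aurka, likewise chosen after its values were seen, had signals of 22.3, 22.1, 14.5 and 20.4 in MCD+HF mice and of 42.7, 30.2, 29.0 and 29.9 in MCD+HF+Met mice. These groups did not overlap, and the log2 difference of 0.52 ± 0.17 had a limma adjusted p of 0.104. Aurka reached the signal limit of 20 only through its metformin mice, with a mean of 33.0. The means of the other groups, 19.9 (NC) and 19.8 (MCD+HF), lay just below it. The gap is therefore a description, because the same high values let the gene be measured.

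A pair of mice stood at the ends of the diet groups for most mitotic genes. Replicate 3 of the MCD+HF mice had the lowest signal of its group for 13 of 17 mitotic genes and 8 of 10 S phase genes, where it was the lowest for 27.2% of all probe sets. Replicate 1 of the MCD+HF+Met mice had the highest signal of its group for 13 of 17 mitotic genes, where it was the highest for 24.6% of all probe sets. Relative to the NC mean, the median log2 value over the 17 mitotic genes was 1.00, 1.09, 0.21 and 0.59 in the 4 MCD+HF mice and 1.37, 0.47, 0.74 and 1.24 in the 4 MCD+HF+Met mice. The groups overlapped widely on this scale. The median log2 change of the mitotic genes with metformin went from 0.37 to 0.26 without MCD+HF replicate 3, to 0.23 without MCD+HF+Met replicate 1 and to 0.08 without both. These mice were picked by the values of the same genes, so a smaller change without them was built into the choice. With each array left out in turn the median ran from 0.23 to 0.54.

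**Figure D5:**
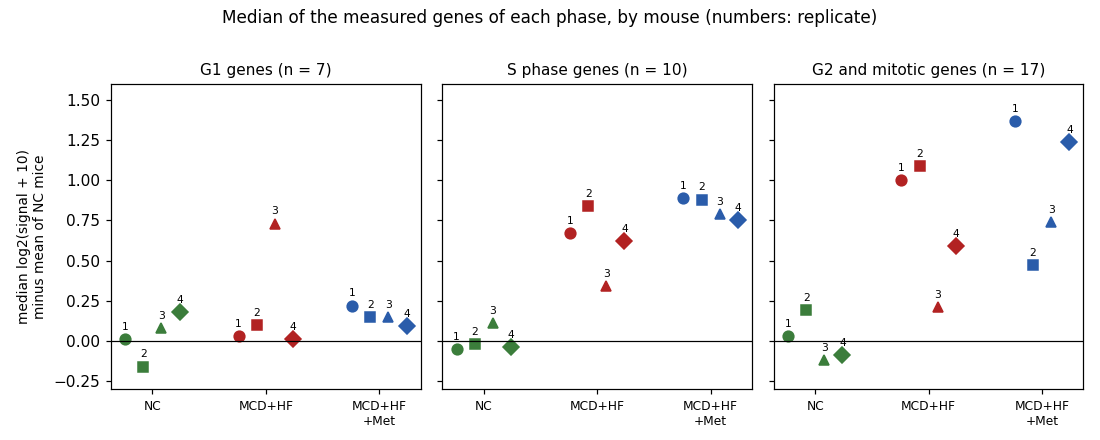
Median over the measured genes of each phase of log2 of the signal plus 10, minus the mean of the NC mice (y axis), for each mouse by group (x axis), with replicate numbers beside the points. The mitotic medians run from 0.21 to 1.09 in MCD+HF mice and from 0.47 to 1.37 in MCD+HF+Met mice. The S phase medians of all mice on the diet lie above those of the NC mice, and the G1 medians overlap.

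The S phase genes showed the same low mouse and a smaller spread. Their medians on that scale were 0.67, 0.84, 0.34 and 0.62 in the MCD+HF mice and 0.89, 0.88, 0.79 and 0.75 in the MCD+HF+Met mice. All of the latter exceeded 3 of the 4 MCD+HF mice. The median change of the S phase genes with metformin fell from 0.27 to 0.07 without MCD+HF replicate 3. That mouse was picked for its low values in these genes as well, so a smaller change without it was built into the choice. With each array left out in turn the S phase median ran from 0.07 to 0.37. Macrophage markers went mostly down in the same comparison: 4 of 8 measured passed the test as lower with metformin and none as higher. Over all probe sets 2.21% were lower. The lysosomal protein Cd68 was among the 4, with a mean of 189 with metformin against 479 without it. The other 4 did not pass, and 2 of them had log2 changes above 0, Clec4f at 0.46 and Cd14 at 0.20. No S phase gene passed in this comparison, and a link between these markers and the S phase values was not tested.

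The third comparison, MCD+HF+Met against NC, shares its NC mice with the first and its metformin mice with the second, so its counts are not independent of theirs. Of the 34 members 25 were higher and 1 (Tk1) lower, where 22.2% of all probe sets were higher and 17.5% lower (5061 and 3996, or 4131 and 4987 with arrays set to the same median, where 23 members were higher and 1 lower). The 25 were 3 of 7 G1 genes, 7 of 10 S phase genes and 15 of 17 mitotic genes. As in the first comparison the counts are a description, because 12 of the 34 had an NC mean below 20. Of these 12, 11 were mitotic genes, which were measurable through the diet groups. With no signal limit 24 of 45 were higher and 1 lower, against 10.9% and 9.74%. Among the mitotic genes 14 of 26 were then higher and 0 lower. Median log2 changes were 0.11, 0.84 and 0.99 for the 3 phases, against 0.03 over all probe sets.

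The mitotic genes set the 2 comparisons with NC apart by count, with 6 higher in the first and 15 in the third, but the difference between these counts was not tested as such and its direct test is the comparison of the diet groups, in which no member passed. Without MCD+HF replicate 3 and MCD+HF+Met replicate 1 the counts were 10 and 10. Both mice were picked by the values of these genes, so the equal counts do not test the difference. Cdc20 had log2 changes of 0.82 and 1.44 against NC, Cdk1 of 0.57 and 1.17, and Ube2c of 0.62 and 1.57, each past the threshold in the third comparison and not in the first. For Cdc20 the metformin mice gave 152.0, 48.7, 39.1 and 54.3, of which replicate 1 was far above the rest. Pcna, called in the first comparison, had a log2 change of 0.16 in the third, with a 95% interval from -0.07 to 0.40.

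The members below the signal limit add little. Plk1, the polo kinase of mitosis, had means of 12, 15.6 and 22.2, and Kif20a, a mitotic kinesin, of 6.15, 13.5 and 21.9, in NC, MCD+HF and MCD+HF+Met mice. These were the 2 among the 11 with a group mean of at least 20. Foxm1, the transcription factor of G2 genes, had means of 10.9, 8.35 and 9, and E2f1, the founding E2F, of 13.2, 15.4 and 18.1. The measured members just above the limit were Tpx2 at a mean of 21.6, Nusap1 at 22.7 and Aurka at 24.2, and the nearest below were Plk1 at 16.6 and E2f1 at 15.5.

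Cell cycle genes outside the list moved in both directions with the diet. Of the 51 measured in 4 further lists, 41.2% were higher and 13.7% lower, against 25.4% and 18.4% of all probe sets. Of 5 measured CDK inhibitor genes 3 rose and none fell, led by Cdkn1a, the p21 inhibitor that halts the cycle, at means of 25.5 in NC and 323 in MCD+HF mice (log2 change 3.20 ± 0.30, limma adjusted p = 4.34e-07), with Cdkn1c at a log2 change of 1.03 and Cdkn2c at 0.85. The Cdkn1a signals, given after the values were seen, were 23.2, 27.7, 24.7 and 26.4 in NC mice, 232.2, 414.9, 329.4 and 314.3 in MCD+HF mice, and 157.0, 306.5, 465.9 and 634.6 in MCD+HF+Met mice. Every mouse on the diet was above all NC mice. MCD+HF+Met replicate 1, the highest of its group for 13 of 17 mitotic genes, was the lowest of the diet mice for Cdkn1a. The other mice of that group did not keep this order. Replicate 4, with the highest Cdkn1a, had a mitotic median of 1.24, and replicate 2, at 306.5, had the lowest median, 0.47.

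Of 12 measured genes of the Rb, E2F and Myb family, 4 rose and 1 fell (33.3% and 8.33%, against 25.4% and 18.4% of all probe sets), with a median log2 change of 0.03 against 0.06 over all probe sets. Rbl1, the p107 protein, rose by a log2 change of 1.06 and E2f8, a repressor of E2F targets, by 0.99, and Rb1 by 0.47, while Rbl2, the p130 protein of resting cells, fell by 0.41 on the log2 scale. Of 17 further replication genes 5 rose and 2 fell, shares of 29.4% and 11.8% that lie near those of all probe sets, and their median log2 change was 0.08. Gins2, a subunit of the replicative helicase, rose by a log2 change of 1.88 and Lig1, which joins Okazaki fragments, by 0.98. Mcm10, a replication initiation factor, fell by 1.12 on the log2 scale, from a mean of 1070 to 482. For Mcm10, 2 of 3 probe sets reached the signal limit, and only the chosen probe set is given here.

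Of 17 further mitotic genes 9 rose and 4 fell with the diet, or 52.9% and 23.5%, against 25.4% and 18.4% of all probe sets. The share that fell lies near that of all probe sets. The largest changes were those of Ect2, the exchange factor that starts cytokinesis, at a log2 change of 2.10, the condensin subunit Smc2 at 1.39, the kinetochore subunit Spc25 at 1.23, and Ccnf, cyclin F, which fell by 1.46. Over these 4 lists, 1 of 51 measured genes, Cks1b, passed the test with metformin, or 1.96%, where 1.24% of all probe sets were higher and 2.21% lower.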

How the data were processed

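Liver RNA of 12 mice was hybridised to Affymetrix mouse arrays. The deposited values are signal intensities per probe set that the authors made with GCOS, scaled on every array so that the mean without the 2% of probe sets at each end is 100, with no log taken. Of 45101 probe sets, 64 controls were left out, and the 22832 whose signal averaged 20 or more over all arrays entered the tests. The log2 of signal plus 10 was fitted by limma 3.58.1 (R 4.3.3) with the 3 groups, lmFit and eBayes with a trend, and p-values were adjusted over all tested probe sets (Benjamini-Hochberg, two-sided, threshold 0.05). Symbols came from the platform annotation, which named 1 gene for 34945 probe sets, several for 932 and none for 9160. Only probe sets of 1 gene were used, and _x_at probe sets only where no other was present. The number of arrays limits precision. Groups came from the sample titles, with 1 mouse per array. The members and lists were chosen with earlier results of these data known. Genes described mouse by mouse were up to 4 of each phase with the largest called diet change, plus Pcna, Ube2c, Aurka, Cks2, Cks1b, Cdkn1a and the metformin mice of Cdc20, chosen after their values were seen. Alternatives were other offsets (1, 32), signal limits, scalings, variance models, probe sets, the methods' t-test, a replicate block and each array left out. The fit was tested on simulated data. Promoters are RefSeq, GRCm38.p6, and the promoters of Ccnd1, Ccnd2, Ccne2, Mcm4, Foxm1, Stmn1, Ccna2, Tpx2, Aurkb and Kif20a were not used here.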

Additional observations from a re-analysis of the deposited data

Results flagged for a closer look

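In 6 of 102 groups of 4 mice, 1 mouse lay far from the other 3 by Dixon's test on the log2 scale, and chance gives about 1 in 20. Ccnd2 was 108.6 in MCD+HF+Met replicate 4, against 215 to 244 in the others. Mcm2 was 102.2 in NC replicate 3, against 34.9 to 42.0. Rrm2 was 27.5 in NC replicate 1, against 50.8 to 54.9. Aurka was 42.7 in MCD+HF+Met replicate 1, against 29.0 to 30.2. Prc1, a protein of the central spindle, was 29.7 in NC replicate 3, against 13.7 to 15.0. Cdca8, the borealin subunit of the chromosomal passenger complex, was 28.2 in NC replicate 2, against 15.9 to 16.3.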

How the results depend on the processing

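No called member changed direction under the alternatives that kept its probe set. Of 21 other probe sets of members called in MCD+HF against NC, 20 had the same direction, the exception being 1 of Mcm7 (log2 change -0.06). The balance of all probe sets called did: with arrays set to the same median, higher and lower calls went from 5808 and 4191 to 4294 and 5934 in MCD+HF against NC, from 282 and 504 to 438 and 426 in MCD+HF+Met against MCD+HF, and from 5061 and 3996 to 4131 and 4987 in MCD+HF+Met against NC. The median log2 change of the G1 genes with metformin went from 0.07 to -0.02 when the probe sets of each gene were averaged. Over 24 results on single genes, 602 of 621 alternatives kept their direction and side of the threshold, 10 lost the threshold and 9 gained it. With a mean signal of at least 50, members higher fell to 11 in MCD+HF against NC and to 11 in MCD+HF+Met against NC, since fewer genes were tested. For MCD+HF+Met against MCD+HF, 1 member (Ube2c) was higher with an offset of 32, the replicate block or the unadjusted methods' t-test, and 1 (Pcna) was lower with an offset of 32, a mean signal of at least 50, quantile normalization or robust variance, and 0 to 1 with each array left out, the 1 being without MCD+HF replicate 3 or without MCD+HF+Met replicate 4. Probe sets called there numbered 786, but 476 with no filter, 8 by the adjusted methods' t-test, 254 to 837 with each array left out (254 without MCD+HF replicate 2, 297 without MCD+HF+Met replicate 2) and 445 without both MCD+HF replicate 3 and MCD+HF+Met replicate 1, an alternative chosen after seeing the data. By the unadjusted methods' t-test with its fold limit, 6073 probe sets were called in MCD+HF against NC (9999 by limma) and 5259 in MCD+HF+Met against NC (9057 by limma). Members lower in MCD+HF+Met against NC were 1 to 2 with each array left out, the 2 being without MCD+HF+Met replicate 1, and 2 without both mice. The cause of these changes was not tested except where stated.

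Replicate numbers are shared by the 3 groups, but same-numbered mice did not deviate together (correlations from -0.134 to 0.251 over 12 pairs, with 3 of 12 best with their own number), so the numbers were not taken as pairs. With the replicate block, 9941, 725 and 8980 probe sets were called in the 3 comparisons, and Ube2c (log2 change 0.95, limma adjusted p = 0.0234) was the 1 member called with metformin.

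Most mitotic genes and Mcm5 had NC signals near or below the limit of 20, where fold changes depend on the offset: the change of Mki67 with the diet ran from 0.92 to 2.23 over its alternatives, and that of Ccnb2 from 0.60 to 1.80.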
